A study of Mus musculus with 10 samples.

Results

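Cd79a, Cd79b, Cr2, Cd22, Blnk, Ms4a1, Fcer2a, Pax5 and Ebf1, genes of the B cell receptor, its coreceptors and the B cell lineage, were followed across spleen and lymph node. They were taken by gene symbol from 19505 named genes on the array. All 9 had 1 probe set each, so no choice between probe sets was needed, and all 9 were among the 13393 genes that passed the filter on low values. The arrays came from C57BL/10 mice and fell into 4 groups: oncogenic Vav1 spleen (4 arrays, animals ONCO1 to ONCO4), GFP spleen (2 arrays, CTL2 and CTL4), oncogenic Vav1 lymph node (2 arrays, ONCO2 and ONCO3) and GFP lymph node (2 arrays, CTL1 and CTL2). Per the labels, wild-type CD4+ T cells were made to carry oncogenic Vav1, a mutant of a guanine nucleotide exchange factor that relays T cell receptor signals, or GFP as the control, and were then transferred to immunocompromised hosts that were studied 6 months later. All groups therefore share the transduction, the transfer and the host. The host's defect, the vector's promoter, the Vav1 mutation and the animals' age were not given in the sources used here. Of the 7 animals, 3 gave both tissues.

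The labels call each sample CD4+ T cells of the spleen or lymph node, yet the B cell genes were abundant on every array. Fcer2a lay at percentile 70.9 or above of the probe sets on every array, and each of the other 8 genes lay at percentile 86.2 or above. Means over the 13 T cell markers on the array lay between 7.66 and 9.32 on the log2 scale over the 10 arrays. Where the B cell transcripts came from was not tested. In bulk RNA of this kind, fewer cells of a type and less RNA per cell cannot be told apart.

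As background, the B cell receptor is a membrane immunoglobulin that signals through the paired chains Cd79a and Cd79b, whose tails are phosphorylated by Src family kinases and recruit the kinase Syk. Blnk, the adaptor, then links Syk to Btk and to phospholipase C. The complement receptor Cr2 (CD21) lowers the threshold of this signal, and Cd22 raises it by recruiting the phosphatase SHP-1. Pax5 and Ebf1 are transcription factors that set up and keep B cell identity, and Cd79a is among their known targets. Cr2 and Fcer2a (CD23, the low-affinity IgE receptor) differ between mature B cell subsets in mice: follicular B cells carry both, and marginal zone B cells carry much Cr2 and little Fcer2a.

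The genes' positions are those of RefSeq on GRCm38.p6, since the build behind the array table was not given in the sources used here. Cd79a (chr7:24897497-24901858) and Cd22 (chr7:30865404-30880342) lie on the same chromosome, as do Cd79b (chr11:106311341-106314562) and Ebf1 (chr11:44618100-45008096), and Ms4a1 (chr19:11249679-11266149) and Blnk (chr19:40928927-40994221). Cr2 lies at chr1:195136811-195176880, Fcer2a at chr8:3680280-3694174 and Pax5 at chr4:44524748-44710694. RefSeq promoter windows, from 250 bases before to 50 after a transcription start, were at hand for 7 of the 9 genes, in 10 windows. Cd79b and Ms4a1 were not among them. Shown here are windows of Cr2 and Fcer2a, which changed most in spleen, and of Cd22 and Blnk, which did not pass the test there. They are read 5′ to 3′ on the gene's strand, minus for all 4. Capitals mark a match to the short motif of EBF (CCCNNGGG) in Cd22, of the octamer factors (ATTTGCAT) in Blnk and of STAT6 (TTC, any 4 bases, then GAA) in the second listed start of Fcer2a, and Cr2 has no capitals.
Cr2, chr1:195176670-195176969: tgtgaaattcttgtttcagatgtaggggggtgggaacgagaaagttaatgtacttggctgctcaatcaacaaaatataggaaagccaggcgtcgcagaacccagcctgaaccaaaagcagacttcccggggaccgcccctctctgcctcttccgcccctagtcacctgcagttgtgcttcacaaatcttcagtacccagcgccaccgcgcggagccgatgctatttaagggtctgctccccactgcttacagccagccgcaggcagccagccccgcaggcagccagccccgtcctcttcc
Fcer2a, second start, chr8:3690812-3691111: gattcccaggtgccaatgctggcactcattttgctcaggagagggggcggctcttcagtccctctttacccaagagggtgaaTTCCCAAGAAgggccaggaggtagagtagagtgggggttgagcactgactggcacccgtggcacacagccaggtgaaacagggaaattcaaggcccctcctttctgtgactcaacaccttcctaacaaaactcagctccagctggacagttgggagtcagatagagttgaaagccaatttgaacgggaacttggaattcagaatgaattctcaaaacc
Cd22, chr7:30878979-30879278: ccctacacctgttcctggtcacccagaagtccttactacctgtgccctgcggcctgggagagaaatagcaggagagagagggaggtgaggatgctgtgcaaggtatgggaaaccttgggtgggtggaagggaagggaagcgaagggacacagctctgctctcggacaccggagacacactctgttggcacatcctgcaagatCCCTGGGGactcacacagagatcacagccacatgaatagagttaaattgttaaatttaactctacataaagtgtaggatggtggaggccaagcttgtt
Blnk, chr19:40994172-40994471: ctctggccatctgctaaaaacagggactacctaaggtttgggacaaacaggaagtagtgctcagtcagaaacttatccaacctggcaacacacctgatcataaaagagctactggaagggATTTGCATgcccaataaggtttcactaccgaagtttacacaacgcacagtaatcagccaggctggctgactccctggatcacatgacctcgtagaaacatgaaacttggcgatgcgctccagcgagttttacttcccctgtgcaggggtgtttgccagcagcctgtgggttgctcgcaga
Over all 32851 mouse promoter windows of this length, searched on both strands, CCCNNGGG occurred in 13.7%, ATTTGCAT in 1.74% and the STAT6 motif in 6.95%. Each of these motifs was found in 1 of the 7 genes and none overlapped another. A short ETS motif (GAGGAA), present in 28.3% of windows, was found in Cd79a and Ebf1 and is not marked. These matches describe letters in a window and are not measured binding sites.

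Vav1 itself, the gene that was introduced, had log2 signals of 10.30, 9.99, 10.17 and 10.23 on the oncogenic Vav1 spleen arrays, against 9.63 and 9.83 on the GFP spleen arrays. In lymph node it had 10.17 and 9.27 with oncogenic Vav1, against 9.52 and 9.69 with GFP. The groups did not overlap in spleen and overlapped in lymph node, and neither difference passed limma's test (0.45, SE 0.21, adjusted p = 0.14 in spleen, and 0.11, SE 0.24, adjusted p = 0.80 in lymph node). Both differences turned negative under an alternative: the spleen value was -0.27 with the intronic control level of each array as a covariate, and the lymph node value was -0.34 without oncogenic Vav1 lymph node replicate 1. Whether the probe set tells the introduced form from the endogenous one was not tested.

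In spleen, 7 of the 9 genes fell with oncogenic Vav1 and none rose, where 9.77% of all genes tested fell. Cr2, Fcer2a and Ebf1 fell most, by 3.85-fold, 3.43-fold and 2.87-fold. Pax5, Ms4a1, Cd79a and Cd79b fell by between 2.15-fold and 1.91-fold, and Cd22 and Blnk had the smallest differences and did not pass. The median difference over the 9 genes was -1.04 on the log2 scale, beside 0.0019 over all genes tested. All 9 genes had every oncogenic Vav1 array below both GFP arrays, as had 25.2% of all genes tested.

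**Figure D1:**
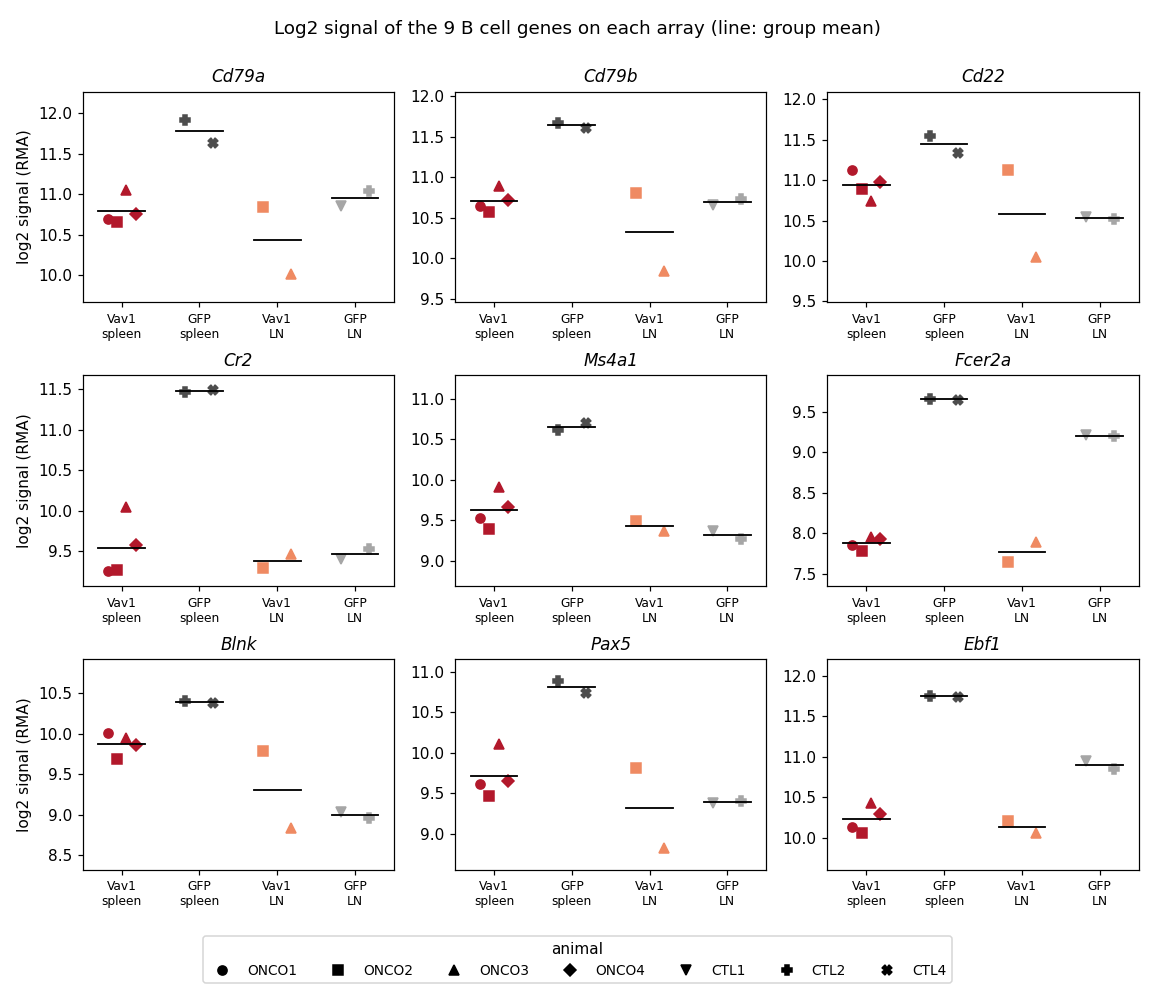
Log2 signal of each of the 9 genes on the 10 arrays, 1 panel per gene, with a marker shape per animal and a line at each group mean. In spleen all 4 oncogenic Vav1 arrays lie below both GFP arrays in every panel. In lymph node the groups are apart for Fcer2a and Ebf1 and overlap for 6 of the other 7 genes, and for Cd79a the closest arrays lie at 10.85 and 10.86.

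The signalling chains of the receptor had closely similar values. Cd79a, the alpha chain, had log2 signals of 10.70, 10.65, 11.05 and 10.75 on the oncogenic Vav1 spleen arrays, against 11.92 and 11.64 on the GFP spleen arrays. Cd79b, the beta chain, had 10.64, 10.57, 10.90 and 10.72 with oncogenic Vav1, against 11.68 and 11.61 with GFP. Each chain had its highest oncogenic Vav1 value in animal ONCO3. The difference was -0.99 (SE 0.21, limma adjusted p = 0.0072) for Cd79a and -0.94 (SE 0.21, adjusted p = 0.010) for Cd79b. Across the 10 arrays the centred profiles of the chains were apart by a root mean square of 0.093 on the log2 scale, the smallest distance between any 2 of the 9 genes.

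Of the receptors that tune the signal, Cr2 had the largest difference of the 9 genes and Cd22 the smallest. Cr2, the complement receptor, had 9.25, 9.27, 10.04 and 9.57 on the oncogenic Vav1 spleen arrays, against 11.46 and 11.49 on the GFP spleen arrays. Its difference of -1.94 (SE 0.20, adjusted p = 0.00028) was the 6th largest fall among the 13393 genes tested, and a gap of 1.42 lay between the closest arrays of the groups. Cd22, the inhibitory coreceptor, had 11.13, 10.89, 10.74 and 10.97 with oncogenic Vav1, against 11.54 and 11.34 with GFP. Its difference was -0.51 (95% confidence interval -1.03 to 0.02, adjusted p = 0.14), and the groups were only 0.21 apart.

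Ms4a1 (CD20), a surface protein that takes part in calcium entry after receptor signalling, had 9.52, 9.39, 9.92 and 9.66 on the oncogenic Vav1 spleen arrays, against 10.61 and 10.71 on the GFP spleen arrays. The difference was -1.04 (SE 0.14, adjusted p = 0.0011). Fcer2a, the IgE receptor of follicular B cells, had 7.85, 7.77, 7.95 and 7.92 with oncogenic Vav1, against 9.66 and 9.65 with GFP. Its arrays agreed most closely within groups, with an SD of 0.081 over the oncogenic Vav1 arrays (n = 4) and 0.0059 over the GFP arrays (n = 2). The difference was -1.78 (SE 0.12, adjusted p = 2.69e-05), the 13th largest fall of all genes tested.

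Blnk, the adaptor behind the receptor, had 10.01, 9.68, 9.95 and 9.86 on the oncogenic Vav1 spleen arrays, against 10.41 and 10.38 on the GFP spleen arrays. Its difference was -0.52 (SE 0.21, adjusted p = 0.095). The lineage factors both fell. Pax5 had 9.61, 9.47, 10.11 and 9.66 with oncogenic Vav1, against 10.89 and 10.75 with GFP, a difference of -1.10 (SE 0.25, adjusted p = 0.0092). Ebf1 had 10.13, 10.06, 10.43 and 10.29 with oncogenic Vav1, against 11.75 and 11.74 with GFP, a difference of -1.52 (SE 0.12, adjusted p = 8.93e-05). As for the receptor chains, Cr2, Ms4a1 and Fcer2a, the highest oncogenic Vav1 array of both factors was that of ONCO3.

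Cr2, Fcer2a, Ebf1 and Ms4a1 kept their fall in spleen under all 23 alternatives tried. The GFP spleen group has 2 arrays, and leaving out 1 of them ended calls among the other 3 genes. Without GFP spleen replicate 1, 4 genes passed, and Cd79a (-0.85, adjusted p = 0.091), Cd79b (-0.90, adjusted p = 0.090) and Pax5 (-1.03, adjusted p = 0.091) did not. Without GFP spleen replicate 2, 5 genes passed, and Cd79b (adjusted p = 0.060) and Pax5 (adjusted p = 0.051) did not. Cd22 and Blnk passed when either oncogenic Vav1 lymph node array was left out, with all 9 genes then called (adjusted p = 0.0021 and 0.0014 for replicate 1, and 0.0019 and 0.0012 for replicate 2). With the intronic control level of each array as a covariate they were -1.23 and -1.10 and passed (adjusted p = 0.035 and 0.047). Over the 23 alternatives Cd22 passed in 6 and Blnk in 7.

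Whether the genes fell by the same amount was examined within each array, as the log2 signal of a gene minus that of Cd79a. In spleen 3 of the other 8 genes fell further than Cd79a, where 0.202% of all genes tested lay lower and 81.3% differed in either direction. Since Cd79a itself fell, the median of all genes was 0.99 higher relative to it. With so many genes called, the adjustment for multiple tests raised p little and set a lenient threshold. For Ebf1 limma's unadjusted p was 0.040. Cr2 stood at -1.45, -1.39, -1.01 and -1.18 relative to Cd79a on the oncogenic Vav1 spleen arrays, against -0.45 and -0.15 on the GFP spleen arrays. The groups did not overlap, and the difference was -0.95 (SE 0.27, adjusted p = 0.0070). For Fcer2a the difference was -0.79 (SE 0.28, adjusted p = 0.021) and for Ebf1 it was -0.53 (SE 0.24, adjusted p = 0.049).

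Cd79b, Ms4a1 and Pax5 differed from Cd79a by 0.05 (95% confidence interval -0.38 to 0.49), -0.05 (-0.57 to 0.48) and -0.12 (-0.57 to 0.34), intervals that hold differences in either direction. Cd22 (0.48) and Blnk (0.47) lay higher than Cd79a without passing (adjusted p = 0.070 and 0.064). These contrasts rest on few arrays. Without GFP spleen replicate 1 only Cr2 passed, and without replicate 2 none did, with Cr2 at -0.80 (adjusted p = 0.063), Fcer2a at -0.65 (adjusted p = 0.13) and Ebf1 at -0.40 (adjusted p = 0.24). Ebf1 did not pass in 14 of 24 alternatives. Leaving out either oncogenic Vav1 lymph node array gave 5 genes, with Cd22 and Blnk then higher than Cd79a (0.48 and 0.47, adjusted p at most 0.026), and both also passed without oncogenic Vav1 spleen replicate 3 (0.63 and 0.53, adjusted p = 0.013 and 0.037).

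**Figure D2:**
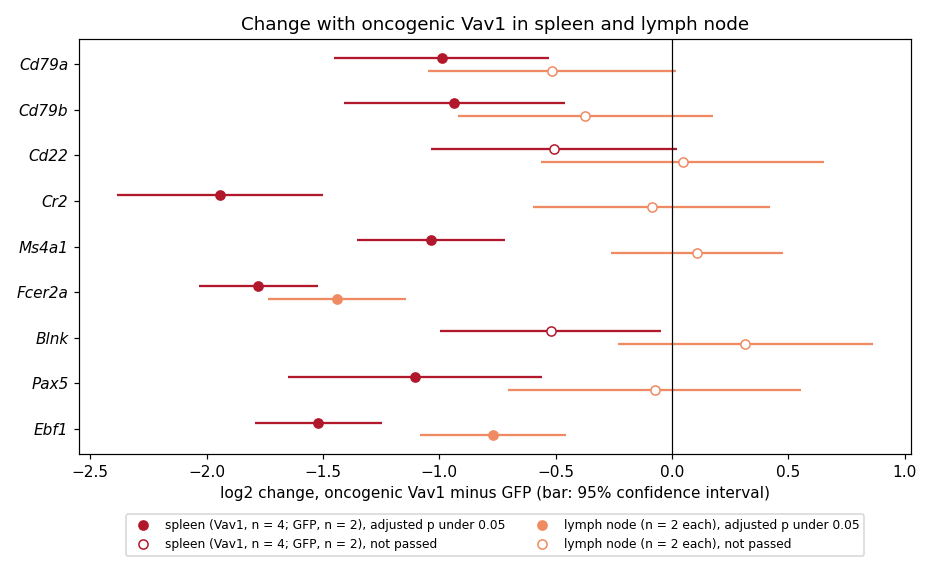
Log2 difference of oncogenic Vav1 from GFP for the 9 genes, with 95% confidence intervals, in spleen and in lymph node. Filled points passed at adjusted p under 0.05. All 9 points lie below 0 in spleen, where 7 passed, and Fcer2a and Ebf1 are the genes that passed in lymph node.

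In lymph node, 2 of the 9 genes, Fcer2a and Ebf1, fell with oncogenic Vav1, where 10.8% of all genes tested fell. The median difference over the 9 genes was -0.09, beside -0.015 over all genes tested. The groups did not overlap for Cd79a, Fcer2a and Ebf1, each lower with oncogenic Vav1, as for 28.8% of all genes tested. Fcer2a had 7.64 and 7.89 on the oncogenic Vav1 lymph node arrays, against 9.21 and 9.20 on the GFP lymph node arrays, a difference of -1.44 (SE 0.13, adjusted p = 8.15e-05). Ebf1 had 10.20 and 10.06 with oncogenic Vav1, against 10.95 and 10.85 with GFP, a difference of -0.77 (SE 0.14, adjusted p = 0.0041). The call of Ebf1 was lost without GFP lymph node replicate 1 (-0.72, adjusted p = 0.054) and with the lymph node arrays fitted alone (-0.77, adjusted p = 0.082), while that of Fcer2a held in all 23 alternatives.

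Cr2 and Ms4a1, which fell in spleen, had overlapping levels in the lymph node groups. Cr2 had 9.29 and 9.46 with oncogenic Vav1, against 9.41 and 9.52 with GFP (-0.09, 95% confidence interval -0.60 to 0.42). Ms4a1 had 9.49 and 9.36 with oncogenic Vav1, against 9.37 and 9.27 with GFP (0.11, -0.26 to 0.48). Both intervals hold differences in either direction, and neither passed under any of the 23 alternatives.

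The other 5 genes differed between the oncogenic Vav1 lymph node arrays themselves. Cd79a had 10.85 in ONCO2 and 10.02 in ONCO3, against 10.86 and 11.04 on the GFP arrays. Cd79b had 10.80 in ONCO2 and 9.84 in ONCO3, against 10.65 and 10.74 with GFP. Cd22 had 11.12 in ONCO2 and 10.04 in ONCO3, against 10.55 and 10.52 with GFP. The array of ONCO3 was thus below both GFP arrays for all 3 genes, while that of ONCO2 was just below them for Cd79a and above both for Cd79b and Cd22. Blnk had 9.79 in ONCO2 and 8.83 in ONCO3, against 9.03 and 8.96 with GFP. Pax5 had 9.81 in ONCO2 and 8.82 in ONCO3, against 9.38 and 9.40 with GFP. The gap between the animals was 0.83 to 1.08 for these 5 genes and at most 0.25 for Cr2, Ms4a1, Fcer2a and Ebf1.

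No difference of these 5 genes passed in lymph node. It was -0.52 for Cd79a (adjusted p = 0.17), -0.37 for Cd79b (adjusted p = 0.35), 0.05 for Cd22 (adjusted p = 0.93), 0.32 for Blnk (adjusted p = 0.43) and -0.07 for Pax5 (adjusted p = 0.89). Without oncogenic Vav1 lymph node replicate 1 (ONCO2), 6 genes fell, with Cd79a at -0.93 (adjusted p = 0.00083), Cd79b at -0.85 (adjusted p = 0.00033), Cd22 at -0.49 (adjusted p = 0.021) and Pax5 at -0.57 (adjusted p = 0.044) besides Fcer2a and Ebf1. Without replicate 2 (ONCO3), Fcer2a and Ebf1 fell while Cd22 (0.58, adjusted p = 0.012) and Blnk (0.79, adjusted p = 0.0013) were higher with oncogenic Vav1. The sign of Cd79b, Cd22, Blnk and Pax5 in lymph node therefore depended on which of these 2 animals was read.

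Marker lists moved along with the array of ONCO3. Means over the 7 erythroid genes were 8.45 and 10.8 on the oncogenic Vav1 lymph node arrays (ONCO2 and ONCO3), against 5.93 and 5.76 on the GFP lymph node arrays. Means over the 9 proliferation genes were 9.13 and 10.1 with oncogenic Vav1, against 6.89 and 6.94 with GFP, and those over the 13 T cell genes were 8.72 and 7.66, against 9.29 and 9.32. The ONCO3 array thus had the highest erythroid and proliferation means and the lowest T cell mean of all 10 arrays. The part of these cells in the differences of the B cell genes was not tested.

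Relative to Cd79a, none of the other 8 genes passed in lymph node by limma's test, where 9.81% of all genes tested did, and 3 (Blnk, Fcer2a and Ms4a1) had an unadjusted p under 0.05. Fcer2a stood at -3.21 and -2.13 on the oncogenic Vav1 arrays, against -1.65 and -1.85 on the GFP arrays, a difference of -0.92 (95% confidence interval -1.62 to -0.23, adjusted p = 0.082). Without oncogenic Vav1 lymph node replicate 2, Fcer2a (-1.47, adjusted p = 0.00036) and Blnk (0.89, adjusted p = 0.029) passed. Without replicate 1, Blnk (0.77, adjusted p = 0.018), Cr2 (0.93, adjusted p = 0.0060) and Ms4a1 (0.98, adjusted p = 0.0040) passed, and without oncogenic Vav1 spleen replicate 3 Blnk did (0.83, adjusted p = 0.047).

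The construct's effect was compared between the tissues as an interaction, with the animal as a random block. Cr2, Ms4a1 and Ebf1, 3 of the 9 genes, had a less negative effect in lymph node than in spleen, where 0.933% of all genes tested had a higher effect there and 8.04% differed in either direction. The lymph node effect minus the spleen effect was 1.87 (SE 0.32, adjusted p = 0.0057) for Cr2, 1.15 (SE 0.22, adjusted p = 0.011) for Ms4a1 and 0.75 (SE 0.19, adjusted p = 0.038) for Ebf1. All 9 values were positive. Those of Pax5 (1.04, adjusted p = 0.12), Blnk (0.83, adjusted p = 0.15), Cd79b (0.57, adjusted p = 0.31), Cd22 (0.53, adjusted p = 0.41) and Cd79a (0.48, adjusted p = 0.38) did not pass. Fcer2a had the smallest, at 0.33 (95% confidence interval -0.08 to 0.75, adjusted p = 0.29).

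The interaction was sensitive to single GFP arrays. Without GFP lymph node replicate 1 no gene passed, with an adjusted p of 0.050 for Cr2, 0.061 for Ms4a1 and 0.13 for Ebf1. Cr2 alone passed without GFP lymph node replicate 2 and without GFP spleen replicate 2, where Ms4a1 had an adjusted p of 0.066 and 0.056. Ebf1 did not pass in 10 of 22 alternatives. Without oncogenic Vav1 lymph node replicate 2, 8 genes passed, all but Fcer2a.

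**Figure D3:**
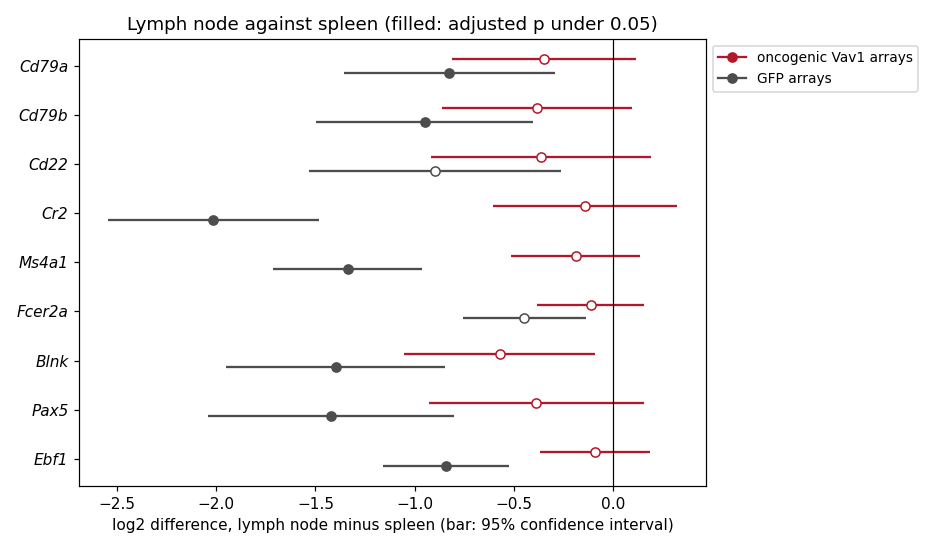
Log2 difference of lymph node from spleen for the 9 genes, in oncogenic Vav1 arrays and in GFP arrays, with 95% confidence intervals and filled points for adjusted p under 0.05. In GFP arrays all 9 genes lie below 0 and 7 passed, and in oncogenic Vav1 arrays the values lie between -0.57 and -0.09 and none passed.

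The tissues were also compared within each construct. Between lymph node and spleen none of the 9 genes passed in oncogenic Vav1 arrays by limma's test, where 0.0373% of all genes tested did, and Blnk alone had an unadjusted p under 0.05. The differences lay between -0.57 in Blnk and -0.09 in Ebf1. In GFP arrays 7 of the 9 genes were lower in lymph node, where 4.41% of all genes tested were. Cr2 was lower by 4.04-fold there (-2.02, SE 0.24, adjusted p = 0.00026), followed by Pax5 (-1.42), Blnk (-1.40), Ms4a1 (-1.34), Cd79b (-0.95), Ebf1 (-0.84) and Cd79a (-0.82). Cd22 (-0.90, adjusted p = 0.057) and Fcer2a (-0.45, adjusted p = 0.054) did not pass.

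Within single animals the tissues could be set against each other directly. In CTL2, the GFP animal with both tissues, all 9 genes were lower in lymph node, with differences between -1.94 in Cr2 and -0.46 in Fcer2a. In ONCO2 the lymph node minus spleen differences lay between -0.14 in Fcer2a and 0.34 in Pax5, and in ONCO3 between -0.06 in Fcer2a and -1.28 in Pax5. Cr2 was 0.02 higher in the lymph node of ONCO2 and differed by -0.58 in that of ONCO3.

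These tissue contrasts also rest on few arrays. In GFP arrays Cr2, Blnk, Ms4a1 and Ebf1 kept their call in all 22 alternatives. Cd79a (adjusted p of 0.083 to 0.25) and Cd79b (adjusted p of 0.099 to 0.16) did not pass when any 1 of the 4 GFP arrays was left out, and 4 genes passed without GFP lymph node replicate 1, where Pax5 had an adjusted p of 0.064. Without oncogenic Vav1 spleen replicate 3, Cd79a (adjusted p = 0.072) and Cd79b (adjusted p = 0.051) did not pass, nor did Cd79a without replicate 1 or 4 (adjusted p = 0.065 and 0.066). Cd22 and Fcer2a passed when either oncogenic Vav1 lymph node array or oncogenic Vav1 spleen replicate 2 was left out. In oncogenic Vav1 arrays, without lymph node replicate 1, Cd79a (-0.80), Cd79b (-0.89), Cd22 (-0.87), Blnk (-1.05) and Pax5 (-0.93) passed as lower in lymph node, each with an adjusted p of at most 0.0019.

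Set in order, the GFP spleen group was highest for all 9 genes. Its arrays also stood apart over the whole array: the median of the intronic control probe sets was 5.27 to 5.57 on the arrays of the other 3 groups, against 5.87 and 5.69 on the GFP spleen arrays, and the array median was 6.27 to 6.32, against 6.41 and 6.40. With the intronic control level as a covariate all 9 genes passed as lower in spleen, Cr2 at -1.61 and Fcer2a at -1.57. Since that level was itself highest in the GFP spleen group, this fit cannot separate the construct from it. For Cr2 the other 3 groups were close together, at 9.53 ± 0.37 in oncogenic Vav1 spleen (SD, n = 4), 9.38 ± 0.12 in oncogenic Vav1 lymph node (n = 2) and 9.47 ± 0.083 in GFP lymph node (n = 2), with overlapping arrays, against 11.48 ± 0.020 in GFP spleen (n = 2). For Ms4a1 they were also close, at 9.62 ± 0.23 in oncogenic Vav1 spleen, 9.43 ± 0.092 in oncogenic Vav1 lymph node and 9.32 ± 0.067 in GFP lymph node, against 10.66 ± 0.067 in GFP spleen, but its oncogenic Vav1 spleen arrays all lay above the GFP lymph node arrays. For Fcer2a the order followed the construct instead. Its oncogenic Vav1 groups, at 7.87 ± 0.081 in spleen and 7.76 ± 0.18 in lymph node, overlapped and lay apart from 9.20 ± 0.011 in GFP lymph node and 9.65 ± 0.0059 in GFP spleen. Ebf1 followed that order too, with 10.23 ± 0.17 in oncogenic Vav1 spleen, 10.13 ± 0.10 in oncogenic Vav1 lymph node, 10.90 ± 0.073 in GFP lymph node and 11.75 ± 0.0065 in GFP spleen.

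In the model of both tissues together, 7 of the 9 genes fell with oncogenic Vav1, where 14.3% of all genes tested fell. The differences were -1.63 for Fcer2a, -1.18 for Ebf1, -1.10 for Cr2, -0.79 for Cd79a, -0.69 for Cd79b, -0.64 for Pax5 and -0.51 for Ms4a1, which was closest to the threshold (adjusted p = 0.041). Cd22 (-0.29) and Blnk (-0.15) did not pass. For Cr2 and Ms4a1 this value averages a fall in spleen with no passed difference in lymph node. Without GFP spleen replicate 1, the genes past the threshold were 3: Cd79a, Fcer2a and Ebf1. Ms4a1 did not pass in 9 of 22 alternatives and Pax5 in 4, and Cd22 (-0.55, adjusted p = 0.0010) and Blnk (-0.36, adjusted p = 0.012) passed without oncogenic Vav1 lymph node replicate 1.

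Genes that act with the receptor were read from a list. Among 23 genes of B cell receptor signalling on the array, 5 fell in spleen and none rose, with a median of -0.15. This count and those of the lists that follow stand beside 9.77% of all genes tested that fell and 17.1% that rose in spleen, and 10.8% and 7.87% in lymph node. Bank1, a scaffold of B cell signalling, fell by 0.97 on the log2 scale, the kinase Btk by 0.75, Malt1, which relays the signal to NF-kB, by 0.83 and the Src family kinase Blk by 1.03. The remaining gene, Siglecg, an inhibitory lectin related to Cd22, fell by 1.24 and is named here after its value was seen. The count was 8 when either oncogenic Vav1 lymph node array was left out. In lymph node none of the 23 passed by limma's test, 2 had an unadjusted p under 0.05 and the median was 0.12. Btk (1.02, SE 0.17, adjusted p = 0.0052), Bank1 (0.95, SE 0.17, adjusted p = 0.0083) and Blk (1.16, SE 0.28, adjusted p = 0.030) had a less negative effect in lymph node than in spleen, as had Cr2, Ms4a1 and Ebf1. These interaction values were not recomputed with arrays left out.

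Among 12 transcription factors of the B lineage, 5 fell in spleen and none rose, with a median of -0.46. Bcl11a fell by 0.81 (SE 0.13, adjusted p = 0.0020), while Bach2, Ikzf3, Foxo1 and Ets1 (the last named after its values were seen) had differences of -0.73, -0.74, -0.54 and -0.61 with adjusted p between 0.034 and 0.041. Those 4 calls were fragile: the count was 1 when any 1 of the 4 GFP arrays or oncogenic Vav1 spleen replicate 2 was left out, 2 without oncogenic Vav1 spleen replicate 1 or 4, and 7 when either oncogenic Vav1 lymph node array was left out. In lymph node 1 of the 12 rose, 2 fell and 9 did not pass, with a median of -0.15. Tcf3 (0.64, adjusted p = 0.0050), which encodes the E2A proteins that act upstream of Ebf1, rose, and Foxo1 (-1.02) and Ets1 (-0.74) fell. Unlike the 9 genes, Foxo1 had a higher GFP mean in lymph node (9.50) than in spleen (9.15). Of 13 T cell genes 6 fell in lymph node, and the part of T cells in these falls was not tested. Without GFP lymph node replicate 1 neither Tcf3 (adjusted p = 0.065) nor Foxo1 (adjusted p = 0.053) passed.

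Among 18 genes of the B cell surface and of antigen presentation, 5 fell in spleen, with a median of -0.49. Ralgps2, abundant in B cells, fell by 1.37, the inhibitory receptor Btla by 1.10, the IgM receptor Fcmr by 1.10, the class II cofactor H2-Ob by 0.80 and the tetraspanin Cd37, named after its value was seen, by 0.77. The count was 3 without GFP spleen replicate 2, where H2-Ob had an adjusted p of 0.062, and 13 when either oncogenic Vav1 lymph node array was left out. In lymph node Cd24a, which red cell precursors also carry, rose by 2.12 (SE 0.56, adjusted p = 0.025), and Ralgps2 (-0.53) fell, as did Ltb (-0.96) and Btla (-0.48), both named after their values were seen. The part of T cells in these falls was not tested either. Cd24a did not pass without GFP lymph node replicate 1 (adjusted p = 0.11), without replicate 2 (adjusted p = 0.15) or when oncogenic Vav1 lymph node replicate 2 was left out (1.16, adjusted p = 0.059). Ralgps2 did not pass without either GFP lymph node array (adjusted p = 0.17 and 0.16) or without oncogenic Vav1 spleen replicate 1 or 4 (adjusted p = 0.057 and 0.055).

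Genes that mark subsets and stages of B cells did not move as one. Of 6 genes of marginal zone B cells, 2 fell in spleen: Notch2 by 0.89, the receptor that these cells need, and its target Dtx1 by 1.23. The call of Dtx1 was lost when GFP spleen replicate 1 was left out (-1.03, adjusted p = 0.063). None of the 6 passed in lymph node, where 2 had an unadjusted p under 0.05. Of 5 precursor genes tested, Vpreb3 (-1.01) and Il7r (-0.85), which T cells also carry, fell in spleen, and both calls were lost when either GFP spleen array was left out (adjusted p = 0.10 and 0.076 for replicate 1, and 0.063 and 0.11 for replicate 2). In lymph node Il7r was the 1 gene of the list that passed, and it fell by 1.29 (SE 0.24, adjusted p = 0.0048), a call kept with any 1 array left out.

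In contrast to the 9 genes, some members of the germinal centre and plasma cell lists rose. Over all genes tested 17.1% rose in spleen and 7.87% in lymph node. Of 6 germinal centre genes, 3 rose in spleen: Mybl1 by 2.60, which other dividing cells also express, the sphingosine receptor S1pr2 by 0.92 and Gcsam by 0.87, of which Gcsam lost its call when GFP spleen replicate 1 was left out (0.66, adjusted p = 0.11). In lymph node 1 of the 6 rose, Mybl1 by 1.97, and the median of the list was -0.024. The GFP means of Mybl1, 4.87 in spleen and 5.53 in lymph node, lay below the 40th percentile of the arrays (5.64 to 5.84). Of 8 plasma cell genes, 5 rose in spleen and 6 in lymph node. Creld2, a protein of the endoplasmic reticulum, rose by 1.61 in spleen and 1.19 in lymph node, the secretory factor Xbp1 by 0.71 and 0.82, and Jchain, which joins IgM and IgA, by 2.29 in lymph node. In spleen Jchain did not pass (0.51, adjusted p = 0.16). Irf4, named after its value was seen, fell in spleen by 0.47. The counts of risen plasma cell genes were 3 in spleen without GFP spleen replicate 1 and 3 in lymph node without GFP lymph node replicate 1. They were 2 in spleen with the intronic control covariate and 1 in lymph node with the lymph node arrays fitted alone.

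**Figure D4:**
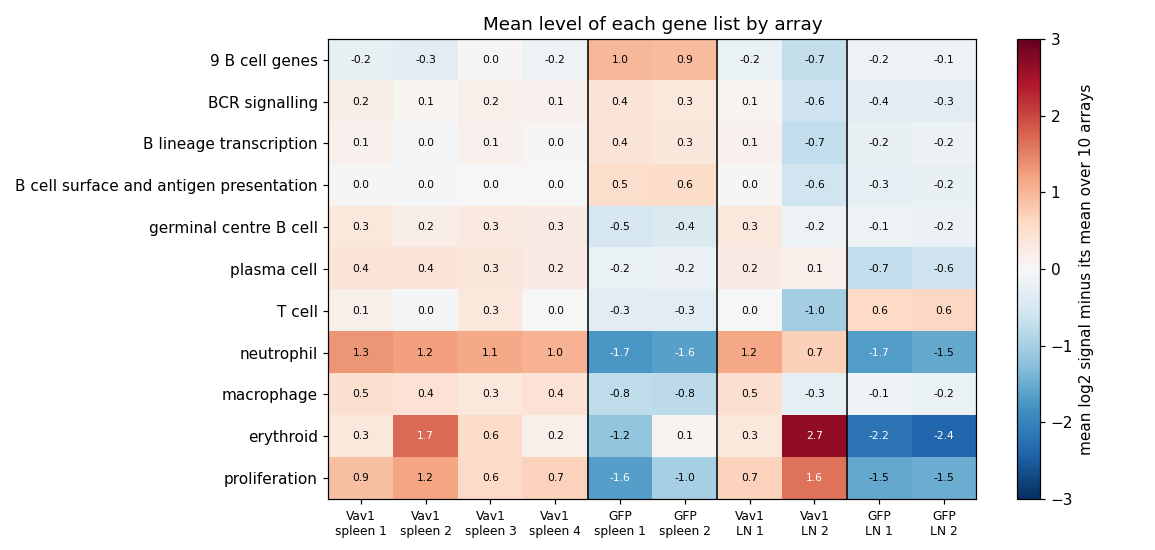
Mean log2 signal of marker lists on each array, shown as the difference from the list's mean over the 10 arrays. The lists of receptor signalling, B lineage transcription and B cell surface genes are highest on the GFP spleen arrays. The germinal centre list is lowest on those arrays, and the plasma cell list is lower on them than on every oncogenic Vav1 array. The neutrophil and proliferation lists are high on every oncogenic Vav1 array.

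Markers of some other cells moved with the construct, not all of them in both tissues. In spleen, 10 of 11 neutrophil genes rose, and the list's mean was 8.93 to 9.20 on the oncogenic Vav1 arrays, against 6.14 and 6.26 on the GFP arrays. All 9 proliferation genes rose in both tissues, with a mean of 9.00 to 9.61 in oncogenic Vav1 spleens, against 6.78 and 7.43 in GFP spleens. Of 9 macrophage genes 6 rose in spleen, with a mean of 9.38 to 9.54 with oncogenic Vav1, against 8.28 and 8.31 with GFP. In lymph node 1 of these 9 rose. Of 7 erythroid genes none passed in spleen and 7 rose in lymph node. Of 13 T cell genes 2 rose and 1 fell in spleen, near the 17.1% and 9.77% of all genes tested. In lymph node 6 of the 13 fell, where 10.8% of all genes tested fell. Of 7 genes of follicular dendritic cells, which hold complement-coated antigen through Cr2 and can carry this gene themselves, 2 rose and 2 fell in spleen and 3 rose in lymph node. Vcam1, an adhesion molecule, rose in spleen (1.37) and lymph node (1.14), as did Madcam1 (1.44 in spleen, and an adjusted p of 0.031 in lymph node, a call named after its value was seen and not recomputed with arrays left out). Cxcl13, the chemokine that draws B cells into follicles, fell in spleen (-0.88), and Coch fell in spleen (-1.07, adjusted p = 0.038) and rose in lymph node (3.69). In spleen, Madcam1 did not pass when GFP spleen replicate 1 or 2 was left out (adjusted p = 0.125 and 0.073), nor did Coch (adjusted p = 0.13 and 0.20), which was also lost without oncogenic Vav1 spleen replicate 1, 2 or 4 (adjusted p of 0.083 to 0.093). With the intronic control covariate Madcam1 was 0.087 and Coch -0.46 in spleen, and neither passed. The part of these cells in the differences of the 9 genes was not tested.

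The genes most like the mean of the 9 were found by the root mean square difference of centred log2 profiles over the 10 arrays, as a description. Bcar3 (0.118), Vamp1 (0.119) and Cnr2 (0.124), the cannabinoid receptor of immune cells, came first, and Malt1 (0.147), Notch2 (0.148) and the NF-kB subunit Rel (0.151) were among the 10 nearest. The 9 genes themselves were left out of this search and of the next. Taken singly, Blnk was nearest to the kinase gene Syk (0.101), Cd22 to Ciita (0.104), the regulator of class II genes, Pax5 to Cd180 (0.136) and Cd79a to Foxp1 (0.11). Among the 9, Cd79b lay closer to Cd79a (0.0931) than Foxp1 did. Ms4a1 was nearest to Rasgef1b (0.0908), Cd79b to Rhobtb2 (0.0927), Ebf1 to Pgap1 (0.13), Fcer2a to Pxdc1 (0.153) and Cr2 to Edaradd (0.191), the largest distance to a nearest gene among the 9.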

How the data were processed

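Total RNA, extracted with Trizol, was measured on 10 Affymetrix mouse arrays from 7 animals. The deposited values are log2 signals that, per the submitters' processing notes, the authors made with RMA in R 3.6.3. The genome build and any filter were not given in the sources used here. The values were used as deposited. For genes with more than 1 probe set (55) that with the highest mean was kept, leaving 19505 genes. A gene was tested if it exceeded the 40th percentile of its array on at least 2 arrays, which kept 13393.

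In R 4.3.3, limma 3.58.1 (lmFit, then eBayes with a variance trend) was fitted to all genes, with statmod 1.5.0 for the random block. A gene passed at a Benjamini-Hochberg adjusted p under 0.05. Tests are two-sided. Spleen and lymph node contrasts came from a model of the 4 groups (6 residual degrees of freedom), both tissues together from an additive model with the animal as random block (block correlation -0.354, 7 residual degrees of freedom), and interaction and tissue contrasts from the 4 groups with that block (-0.113). These correlations rest on the 3 animals with both tissues. A negative value makes the construct effect over both tissues look more precise than independent arrays would. Contrasts relative to Cd79a used each gene minus Cd79a within the array. The number of arrays limits the precision. Within each group the labels name separate animals, but 3 animals gave an array to both tissues. The spleen, lymph node and relative to Cd79a contrasts had no animal term, so they treat the arrays of such an animal as independent. Their p-values measure the spread between arrays within all 4 groups, so those for spleen also draw on lymph node arrays. The titles' replicate numbers do not pair the arrays: those of the same number come from different animals across constructs. The fits, except those relative to Cd79a, were tested on simulated data. The simulated arrays were independent and had no array-wide shift of the GFP spleen group. That shift and a correlation within animals were therefore not part of that test, whose outcome is not given here.

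The genes and the marker lists were chosen with earlier results of these data known. From each list, a rule picked up to 4 genes with the smallest p in spleen and up to 2 in lymph node. The text names some of the picked genes, with all 9 genes and Vav1. Promoter windows and positions are RefSeq's (GRCm38.p6).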

Additional observations from a re-analysis of the deposited data

Results flagged for a closer look

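The effect of oncogenic Vav1 differed between the tissues for 3 of the 9 genes, by limma's interaction test with the animal as a random block. The lymph node effect minus the spleen effect was 1.87 for Cr2 (SE 0.32, adjusted p = 0.0057), 1.15 for Ms4a1 (SE 0.22, adjusted p = 0.011) and 0.75 for Ebf1 (SE 0.19, adjusted p = 0.038) on the log2 scale. Without GFP lymph node replicate 1 none passed, with Cr2 at an adjusted p of 0.050, Ms4a1 of 0.061 and Ebf1 of 0.13. No array stood apart from the others of its group for any of the 9 genes or Vav1 among the 4 oncogenic Vav1 spleen arrays, the only group large enough for that test (0 of 10 genes).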

How the results depend on the processing

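The counts below are numbers of the 9 genes that passed, or of the other 8 where a gene was set against Cd79a. Leaving out 1 array at a time gave between 4 and 9 in spleen, 1 and 6 in lymph node, 0 and 8 for the interaction, 3 and 9 in the model of both tissues, 0 and 5 between tissues in oncogenic Vav1 arrays, 4 and 9 between tissues in GFP arrays, 0 and 5 relative to Cd79a in spleen, and 0 and 3 relative to Cd79a in lymph node. Without both arrays of ONCO3 the counts were 5 in lymph node, 8 for the interaction, 5 relative to Cd79a in spleen and 3 relative to Cd79a in lymph node. The intronic control covariate gave 6 for the interaction and 0 relative to Cd79a in spleen. Array weights gave 5, and the spleen arrays alone 5, relative to Cd79a in spleen, and the lymph node arrays alone gave 1 in lymph node. The animal block gave 1 relative to Cd79a in lymph node. The replicate number as a block gave 1 relative to Cd79a in spleen and moved no other of these counts by over 1.5 times. Arrays of the same number come from different animals. Of 12 same-numbered pairs, 5 had a correlation of deviations over 0.1 (range -0.0629 to 0.508). In groups of 2 arrays the deviations mirror each other, so these values cannot show whether the numbers mark a shared batch. Tissue in GFP arrays with that construct's arrays alone could not be fitted and was not run.

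Signs turned in some settings, and the cause was not tested. With the replicate block Blnk was 0.0069 over both tissues, and Cr2 0.12 and Ebf1 0.038 between tissues in oncogenic Vav1 arrays. With the animal block Ms4a1 was 0.0080 relative to Cd79a in spleen. With the intronic covariate, in spleen, Vav1 was -0.27, Fas -0.46, and, relative to Cd79a, Cd79b -0.13 and Ms4a1 0.33. Without both arrays of ONCO3, Cd79b was 0.11 and Pax5 0.42 in lymph node, Cr2 -0.072 relative to Cd79a in lymph node, and Cd79a 0.15, Cd79b 0.17, Cd22 0.14, Pax5 0.24 and Ebf1 0.057 between tissues in oncogenic Vav1 arrays. With 1 array left out, values in lymph node ranged over -0.85 to 0.11 for Cd79b, -0.49 to 0.58 for Cd22, -0.16 to 0.79 for Blnk, -0.57 to 0.42 for Pax5 and -0.34 to 0.56 for Vav1. Between tissues in oncogenic Vav1 arrays they ranged over -0.80 to 0.075 for Cd79a, -0.89 to 0.11 for Cd79b, -0.87 to 0.19 for Cd22, -0.93 to 0.13 for Pax5, -0.28 to 0.0022 for Cr2 and -0.23 to 0.0060 for Fcer2a. Relative to Cd79a they ranged over -0.053 to 0.16 for Cd79b and -0.23 to 0.14 for Ms4a1 in spleen, and over -0.072 to 0.93 for Cr2 and -0.60 to 0.087 for Ebf1 in lymph node. Beside the values with 1 array left out, the counts that fell in spleen were, without both arrays of ONCO3, 11 of receptor signalling, 8 of B lineage transcription and 14 of surface genes. With the spleen arrays alone they were 8 of receptor signalling and 12 of surface genes, with the intronic covariate 3 of B lineage transcription and 11 of surface genes, with the replicate block 2 of B lineage transcription, and of surface genes 10 with quantile normalization and 11 with array weights. Of 1840 values of Vav1 and the list genes picked by the rule, over 24 settings, 3 turned sign, 85 lost and 70 gained a call. Groups of 2 arrays limit each of these contrasts.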
